A study of Homo sapiens with 6 samples.

Results

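The genes described here are 8 keratins (KRT5, KRT7, KRT8, KRT17, KRT18, KRT19, KRT80 and KRT81) and vimentin (VIM), taken by gene symbol from 24551 genes. Of these 9 genes, 7 averaged 1 FPKM or more over all libraries (FPKM is a fragment count divided by transcript length and by library size) and were tested with 11865 genes in all, whereas KRT5 and KRT17 were below that level. RNA-Seq of polyadenylated RNA was carried out in DU145, a prostate carcinoma line derived from a brain metastasis, and in 769-P, a renal cell adenocarcinoma line. Each line gave 3 libraries, a control (NC) and 2 that differ in the siRNA used against SPOP, called siRNA 1 and siRNA 2. SPOP is the substrate adaptor of a CUL3 ubiquitin ligase, and the libraries address which transcripts change when it is lost in a prostate and in a renal cancer line. The 2 siRNA libraries of a line served as its replicates, each control stood alone, and every group comes from a single established line. By the methods DU145 was cultured in DMEM and 769-P in RPMI medium, so line and medium cannot be told apart. The methods speak of 2 biological replicates per sample, and 1 library for each is labelled, so it is not known whether the spread given here covers separate cultures.

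Intermediate filaments are the part of the cytoskeleton that gives cells their mechanical strength. Keratins are the intermediate filaments of epithelia and form only as pairs of a type I (acidic) and a type II (basic) chain, such as KRT18 with KRT8 in simple epithelia or KRT17 with a type II partner in stressed and basal epithelia. Vimentin, a type III protein, forms filaments with itself and is typical of mesenchymal cells, but is also common in cultured carcinoma lines and in clear cell renal carcinoma. In the GENCODE annotation of GRCh37 the type II genes lay together on chromosome 12 (KRT80 from 52562780 to 52585798, KRT7 from 52626304 to 52645970, KRT81 from 52679697 to 52685318, KRT5 from 52908359 to 52914314 and KRT8 from 53290971 to 53343738). The type I gene KRT18 lay beside KRT8 on chromosome 12, from 53342655 to 53346690, and its annotated span overlapped that of KRT8. The other type I genes lay on chromosome 17, KRT19 from 39679869 to 39684560 and KRT17 from 39775694 to 39781094. VIM lay on chromosome 10 from 17270240 to 17279592.

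The promoter of VIM, the gene with the highest level in 769-P among the 9, is shown around the start of transcription. RefSeq promoter sequence (GRCh38.p14) was matched by symbol for 3 of the 9 genes, KRT5, KRT8 and VIM. The VIM window lies on the plus strand at chr10:17227991-17228290, and capitals mark its 1 match to the GC box GGGCGG, searched on both strands. A GC box was found in 45.0% of 35116 RefSeq promoters of this length, and in neither the KRT5 nor the KRT8 window. The TATA box TATAAA, searched in the same way, was in 11.5% of all promoters and in none of the 3 windows.
VIM: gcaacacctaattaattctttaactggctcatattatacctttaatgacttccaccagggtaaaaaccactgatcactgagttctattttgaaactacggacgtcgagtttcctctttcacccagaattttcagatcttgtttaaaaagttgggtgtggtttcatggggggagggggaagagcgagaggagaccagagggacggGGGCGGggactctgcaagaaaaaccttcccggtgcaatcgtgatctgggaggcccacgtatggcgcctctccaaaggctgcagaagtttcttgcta

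Before the genes were compared, the libraries were examined. SPOP had 16.1 FPKM in the DU145 control, 2.77 with siRNA 1 and 2.96 with siRNA 2, and 11.6, 1.53 and 1.39 FPKM in the same order in 769-P. Depth, set against the 769-P control by the commonest ratio among low values, ran from 0.683 to 1.41, and the number of fragments behind a value is not known. In the DU145 control 287 of 366 olfactory receptor genes were above 0 (mean 0.345 FPKM) and in the 769-P siRNA 2 library 237 were (mean 0.227 FPKM), against 3 to 5 in each other library, so values below about that level are near the background of those 2 libraries. Of 10 renal genes 7 were tested, and by limma 6 were higher in 769-P, as were 16.5% of all genes tested. Among the 6 was PAX8, with 106 to 125 FPKM against at most 1.47 in DU145. The other 1, NDUFA4L2, was higher in DU145 (adjusted p = 0.000419 from limma), as were 29.9% of all genes tested. NDUFA4L2 and CA9 were listed at 0 in all 769-P libraries. NDUFA4L2 thus passed the filter only through DU145. PAX2, AQP1, CDH6 and CDH16 were below 1 FPKM in every DU145 library and passed it only through 769-P. The calls of these genes are no independent support for a difference. Prostate markers were scarce in DU145, with KLK3 and KLK2 at 0 in both siRNA libraries and at most 0.312 FPKM in the control, and 2 of 10 such genes were high enough to be tested. Of 8 blood and endothelial genes 7 were below 1 FPKM in every library, with PECAM1 at 0 throughout and PTPRC at no more than 0.0347 FPKM. The other, CD68, a lysosomal protein typical of macrophages, had 20.7 to 37.1 FPKM in DU145 and 54.5 to 74.7 FPKM in 769-P, and was higher in 769-P by limma (adjusted p = 0.00355). The sum over the 8 genes ran from 21.9 to 37.2 FPKM in DU145 and from 54.7 to 75.8 FPKM in 769-P, and its part in the differences between the lines was not tested.

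The 2 lines had different intermediate filament profiles. DU145 carried mainly keratin transcripts, led by KRT7, KRT8, KRT18 and KRT19, and 769-P carried mainly vimentin with KRT8, KRT18 and KRT80. The level of 5 keratins was higher in DU145, that of VIM was higher in 769-P, and the KRT80 values of the lines overlapped. In such bulk libraries, fewer cells with a transcript and less of it in each cell cannot be told apart. The keratin total over 53 listed keratin genes was 2472 ± 453 FPKM in DU145 and 702 ± 84.1 FPKM in 769-P (SD, n = 3 libraries of each line, control and both siRNAs together). VIM was 586 ± 47.5 FPKM in DU145 and 3236 ± 644 FPKM in 769-P (SD, n = 3). As a share of vimentin and keratin together, VIM made up 15.9% to 24.3% in the DU145 libraries and 80.5% to 83.3% in the 769-P libraries. The 8 keratins held at least 98.5% of the keratin total in every DU145 library and at least 95.7% in every 769-P library.

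**Figure D1:**
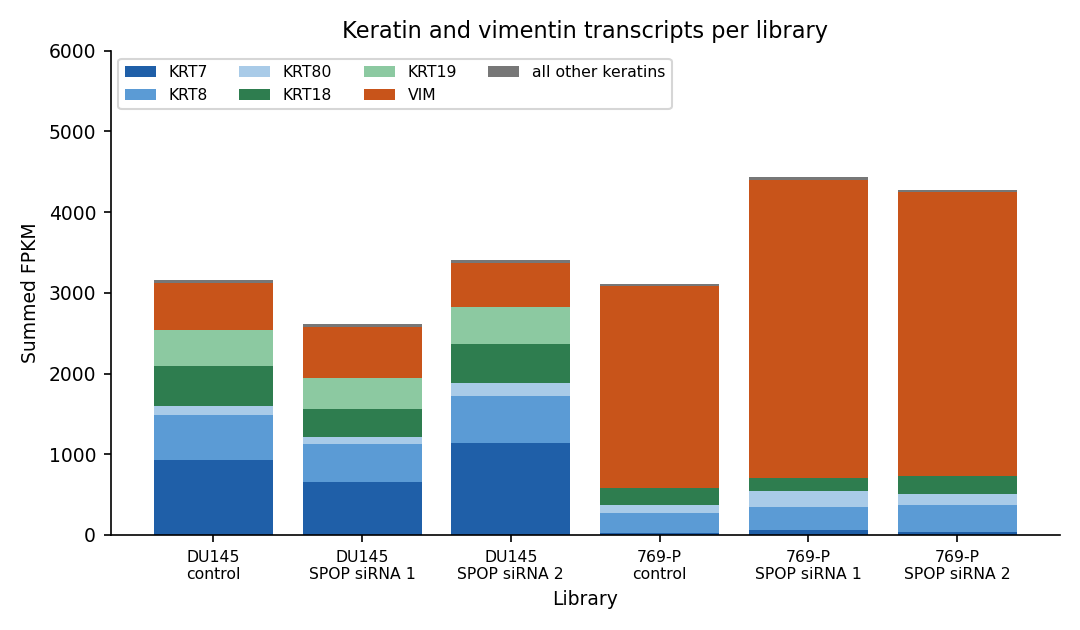
Summed FPKM of keratins and vimentin (y axis) in each of the 6 libraries (x axis), with bars stacked by gene. Vimentin fills 15.9% to 24.3% of the DU145 bars and 80.5% to 83.3% of the 769-P bars, and KRT7 and KRT19 are broad bands in DU145 and thin or not visible in 769-P.

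In limma, with all 3 libraries of each line and Benjamini-Hochberg adjustment over all genes tested, 5 of the 7 tested genes were higher in DU145, where 29.9% of all genes were called higher, and 1 was higher in 769-P, where 16.5% were. The 5 include KRT81, which reached the filter only through DU145, and at a mean of at least 5 FPKM, where it was not tested, the numbers were 4 and 1 of 6. For 5 of the 7 all DU145 libraries were above all 769-P libraries, as for 35.1% of all genes, and for 1 the order was the reverse, as for 21.2%. The median difference over the 7 genes was 1.13 (log2, with positive values higher in DU145), and over all genes tested it was 0.16. With quantile normalization the split of calls over all genes moved from 3550 higher and 1959 lower in DU145 to 2765 and 2920, and 5 and 1 of the 7 genes were still counted. The 3 libraries of a line differ in transfection, so changes with knockdown are counted as spread in this test.

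Among the type II keratins, KRT7, a keratin of simple glandular and ductal epithelia and of urothelium, had 933, 652 and 1140 FPKM in the DU145 control, siRNA 1 and siRNA 2 libraries, and 22.5, 55.2 and 35.7 FPKM in those of 769-P. It was the most abundant of the 9 transcripts in DU145, 24.0-fold above 769-P by the means. The difference was 4.60 on the log2(FPKM + 1) scale (standard error 0.32, adjusted p = 7.24e-06 from limma). KRT8, the type II keratin of nearly all simple epithelia, had 559, 472 and 586 FPKM in DU145, and 251, 288 and 340 FPKM in 769-P. Every DU145 value lay above every 769-P value, with a log2 difference of 0.88 (standard error 0.16, adjusted p = 0.00190 from limma).

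KRT80, a type II keratin found in most epithelia and near desmosomes, had 100, 86.3 and 154 FPKM in DU145, and 102, 196 and 129 FPKM in 769-P. The 2 lines overlapped, with a log2 difference of -0.31 (standard error 0.28, adjusted p = 0.388 from limma). KRT81, a hair keratin, was low in DU145 with 7.04, 5.79 and 8.57 FPKM, and lower still in 769-P with 0.609, 0.342 and 0.345 FPKM. All DU145 values were above all 769-P values, with a log2(FPKM + 1) difference of 2.50 that became 3.78 with a pseudocount of 0.1. KRT81 passed the filter only through DU145, so its call is no independent support for a difference. Its 0.345 FPKM in the 769-P siRNA 2 library lies near the olfactory receptor mean of 0.227 FPKM there. That mean was 0.00516 FPKM in the 769-P control and 0.00545 FPKM in the siRNA 1 library, below the KRT81 values of both. KRT81 is nearly identical in sequence to its neighbour KRT86, and how reads shared by the 2 genes were assigned is not given in the sources used here. KRT5, the type II keratin of basal epithelial cells, had 0.254, 0.144 and 0 FPKM in DU145 and 0, 0 and 0.141 FPKM in 769-P, with the highest value of each line in the library with background at olfactory receptor genes. The value of 0.144 FPKM came from a library with little such background, and KRT5 was not tested.

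Among the type I keratins, KRT18, the usual partner of KRT8, had 507, 343 and 482 FPKM in DU145, and 208, 171 and 226 FPKM in 769-P. All DU145 values were above all 769-P values, with a log2 difference of 1.13 (standard error 0.19, adjusted p = 0.00122 from limma). KRT8 and KRT18 have many processed pseudogenes, and of these KRT8P41 and KRT18P55 were listed with at most 0.217 and 0.175 FPKM in any library. KRT19, the smallest keratin, typical of ductal and glandular epithelia, had 446, 384 and 462 FPKM in DU145. The 769-P control had 2.60 FPKM of KRT19, the siRNA 1 library was listed at 0 and the siRNA 2 library had 3.56 FPKM. Its difference between the lines, 7.40 on the log2(FPKM + 1) scale (standard error 0.48, adjusted p = 5.38e-06 from limma), was the largest of the 7 genes. Without the 769-P siRNA 1 library, where KRT19 was listed at 0, it was 6.73, and with a pseudocount of 0.1 it was 8.75. KRT17, an inducible keratin of basal and stressed epithelia, had 0.128, 1.30 and 1.10 FPKM in DU145, and 0.301, 0 and 0.213 FPKM in 769-P.

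VIM had 583, 635 and 541 FPKM in DU145, and 2499, 3692 and 3517 FPKM in 769-P. The lowest 769-P value was far above the highest DU145 value, and the means differed 5.52-fold. The log2 difference was -2.44 (DU145 minus 769-P, standard error 0.17, adjusted p = 6.86e-06 from limma). By level VIM in 769-P ranked 8th, 3rd and 4th of 24551 genes in the control, siRNA 1 and siRNA 2 libraries, and in DU145 84th, 71st and 97th. VIM-AS1, which is antisense to VIM, had at most 1.84 FPKM, and no source used here states that strand was kept in counting.

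**Figure D2:**
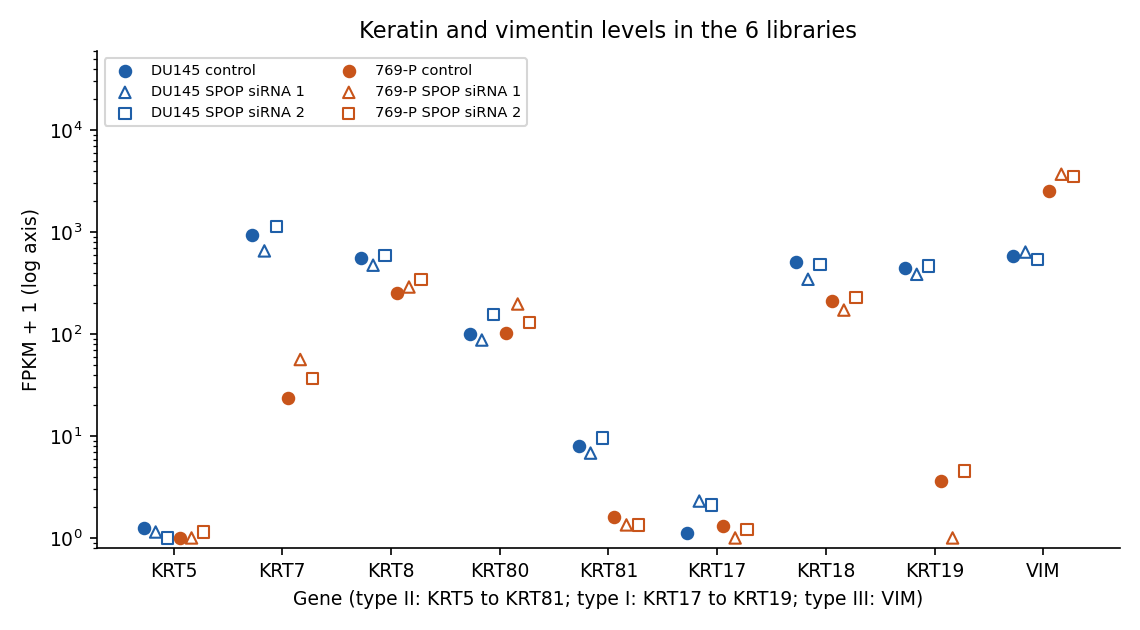
FPKM + 1 on a log axis for each of the 9 genes (x axis) in the 6 libraries, with filled circles for controls, triangles for siRNA 1 and squares for siRNA 2, blue for DU145 and orange for 769-P. KRT7, KRT8, KRT18, KRT19 and KRT81 are higher in every DU145 library, VIM is higher in every 769-P library, and KRT80 overlaps.

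**Figure D3:**
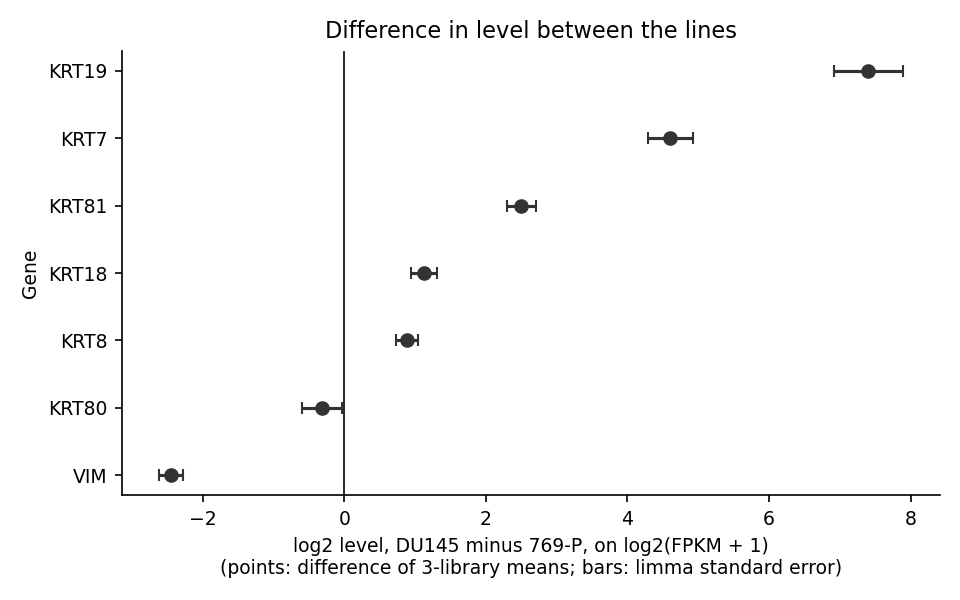
Difference in log2(FPKM + 1) between the lines (x axis, DU145 minus 769-P) for the 7 tested genes (y axis), with limma standard errors as bars. The points run from -2.44 for VIM to 7.40 for KRT19, and KRT80 at -0.31 is the only one whose adjusted p is above 0.05.

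The order of levels also differed. FPKM is per length, which lets levels of different genes be set side by side only roughly. How reads shared with near copies or pseudogenes were assigned is not known, and the order and the shares below depend on it. In DU145 the order by mean was KRT7 (908 FPKM), VIM (586), KRT8 (539), KRT18 (444), KRT19 (431), KRT80 (114), KRT81 (7.14), KRT17 (0.843) and KRT5 (0.133). The ranges over the 3 libraries overlapped between VIM and KRT8, between KRT8 and KRT18, between KRT18 and KRT19, and between KRT17 and KRT5. In 769-P the order was VIM (3236 FPKM), KRT8 (293), KRT18 (202), KRT80 (142), KRT7 (37.8), KRT19 (2.05), KRT81 (0.432), KRT17 (0.171) and KRT5 (0.0470). There the ranges of KRT18 and KRT80, of KRT19 and KRT81, and of KRT17 and KRT5 overlapped.

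The keratin total was divided differently among the genes. KRT7 made up 36.3% ± 3.40 of it in DU145 and 5.29% ± 1.93 in 769-P, and KRT19 made up 17.6% ± 1.68 and 0.299% ± 0.260 (SD, n = 3 libraries of each line). KRT8 held 22.0% ± 1.74 in DU145 and 41.7% ± 3.02 in 769-P, both as mean ± SD, n = 3. KRT18 held 16.9% to 19.7% in the DU145 libraries and 23.0% to 34.4% in those of 769-P. KRT80 held 4.55% ± 0.772 in DU145 and 20.1% ± 5.48 in 769-P (SD, n = 3). These shares sum to a fixed total, so they do not move independently. Type II transcripts exceeded type I transcripts in every library, by 1.62-fold to 1.97-fold in DU145 and by 1.64-fold to 2.71-fold in 769-P, and the 2 ranges overlapped.

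Markers of epithelial and mesenchymal cells differed between the lines as well. These counts are from limma, in which 29.9% of all genes tested were higher in DU145 and 16.5% in 769-P. Of 10 epithelial genes 9 were tested, and 8 were higher in DU145 and 1, CLDN4, was higher in 769-P. CDH1, the epithelial cadherin, had 8.87 to 17.7 FPKM in DU145 and at most 0.0977 FPKM in 769-P. Of 10 mesenchymal genes 5 were tested, and 3 were higher in 769-P and 0 in DU145. CDH2, the neuronal cadherin, had 78.1 to 99.1 FPKM in 769-P and at most 0.564 in DU145. Among 16 regulators of epithelial and keratin genes 7 were tested, and 6 were higher in DU145 and 1 in 769-P. TP63, which drives basal keratins, had at most 0.122 FPKM in any library. CDH1, CLDN7, SPINT1, ST14, TFAP2C and ESRP2 were below 1 FPKM in every 769-P library and passed the filter only through DU145. CDH2 was below 1 FPKM in every DU145 library and passed it only through 769-P. The calls of these genes are no independent support for a difference.

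Few of these genes differed from the control in the same way with both SPOP siRNAs. A gene was counted when its log2(FPKM + 1) differed from the control of its line by at least 1.5-fold in the same direction with siRNA 1 and siRNA 2. In DU145 this held for 0 of the 7 tested genes, where 4.72% of all genes were counted as higher and 1.19% as lower. In 769-P it held for 1 of 7, KRT7, where 3.6% of all genes were counted as higher and 3.73% as lower. Over all genes 560 were higher and 141 lower in DU145, which became 395 and 278 with quantile normalization, 341 and 242 with changes centred on the median of all genes, and 819 and 88 with the olfactory receptor mean subtracted. For 769-P 427 were higher and 442 lower, and quantile normalization made these 449 and 293. The median change over all genes tested was 0.07 and 0.12 with siRNA 1 and siRNA 2 in DU145, and 0 and -0.06 in 769-P. By limma, the knockdown effect passed an adjusted p of 0.05 for 0 of the 7 genes in DU145, for 0 in 769-P and for 0 as a difference between both, where 0.135%, 0.101% and 0.169% of all genes passed. At an unadjusted p of 0.05 the numbers were also 0, 0 and 0 with these settings. In 769-P the number became 2, KRT7 and VIM, with quantile normalization and with centred changes, and 1, VIM, at a mean of at least 5 FPKM. The adjusted p from limma in these 3 fits was 0.632 or more. SPOP itself, the target, had mean log2 changes of -2.15 in DU145 and -2.35 in 769-P and also missed the adjusted threshold in each line. In simulated data with 200 of 11865 genes changed by 2 on the log2 scale in DU145, the same fit recovered 0 of them. At a change of 4 it recovered 171, and the mean changes of the 7 genes were all smaller than 2.

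Cell type markers also differed from the control with both siRNAs. In DU145 the epithelial gene CDH1 was past 1.5-fold, at 8.87, 15.9 and 17.7 FPKM in control, siRNA 1 and siRNA 2. In 769-P the matrix genes FN1 (87.5, 155 and 174 FPKM) and COL1A1 (1.71, 9.68 and 7.36 FPKM) were past it, 2 of the 5 tested mesenchymal genes. Over all genes tested 4.72% were counted as higher in DU145 and 3.6% in 769-P. The mesenchymal list summed to between 179 and 276 FPKM in 769-P, against 11.3 to 21.7 FPKM in DU145. In limma the knockdown effect missed the threshold of 0.05 for CDH1, FN1 and COL1A1, and their part in the keratin and vimentin values was not tested.

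In 769-P KRT7 went from 22.5 FPKM in the control to 55.2 with siRNA 1 and 35.7 with siRNA 2, which is 2.45-fold and 1.59-fold. Both siRNA values were above the control, and they differed from each other by 0.61 on the log2(FPKM + 1) scale. By limma its mean log2 change was 0.95, with a standard error of 0.42 and an adjusted p of 0.709. For DU145, KRT7 was at 0.700-fold of the control with siRNA 1 and at 1.22-fold with siRNA 2, so the 2 siRNAs lay on either side of the control. The difference of the change between the lines was -1.06 (DU145 minus 769-P, standard error 0.60, adjusted p = 0.999 from limma).

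VIM in 769-P was 1.48-fold of the control with siRNA 1 and 1.41-fold with siRNA 2, close to each other and both just short of the threshold. By limma the mean log2 change was 0.53, with a standard error of 0.22 and an adjusted p of 0.709. For DU145, VIM was 1.09-fold and 0.927-fold of the control, with a mean log2 change of 0.01 that turned to -0.09 when changes were centred on the median of all genes. The share of VIM in vimentin and keratin together was 80.5% in the 769-P control and 83.3% and 82.3% with the siRNAs, and in DU145 the control, at 18.4%, lay between the siRNA libraries at 24.3% and 15.9%.

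KRT8 in 769-P was 1.15-fold and 1.36-fold of the control with siRNA 1 and siRNA 2, and KRT18 was 0.820-fold and 1.08-fold. In DU145 KRT8 was 0.844-fold and 1.05-fold, and KRT18 was 0.677-fold and 0.950-fold. Of the 7 tested genes only KRT18 was below the DU145 control with both siRNAs, and its mean log2 change of -0.32 had a standard error of 0.30. KRT80 was 1.92-fold and 1.26-fold of the control in 769-P, and 0.863-fold and 1.54-fold in DU145. Its value was thus higher with siRNA 1 than with siRNA 2 in 769-P and lower in DU145. KRT81 in 769-P was 0.562-fold and 0.566-fold of the control, all values being below 1 FPKM, where the pseudocount of 1 shrinks the change to -0.26 with either siRNA. In the same libraries its near copy KRT86 went the other way, to 4.31-fold and 3.54-fold of the control. Whether the division of shared reads between KRT81 and KRT86 differed between libraries was not tested. KRT19 stayed between 0.862-fold and 1.04-fold of the control in DU145, and its 0 with siRNA 1 in 769-P was not repeated with siRNA 2.

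KRT17 had the largest mean log2(FPKM + 1) change of the 9 genes in DU145, 1.03 with siRNA 1 and 0.90 with siRNA 2, at values of at most 1.30 FPKM that left it outside the test. The pseudogene KRT16P2, of the closely related gene KRT16, went from 0.766 to 2.60 and 2.64 FPKM in the same libraries. Whether reads of KRT17 and of such pseudogenes were told apart was not tested. The KRT17 value of the DU145 control, 0.128 FPKM, lay below the olfactory receptor mean of 0.345 FPKM there.

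**Figure D4:**
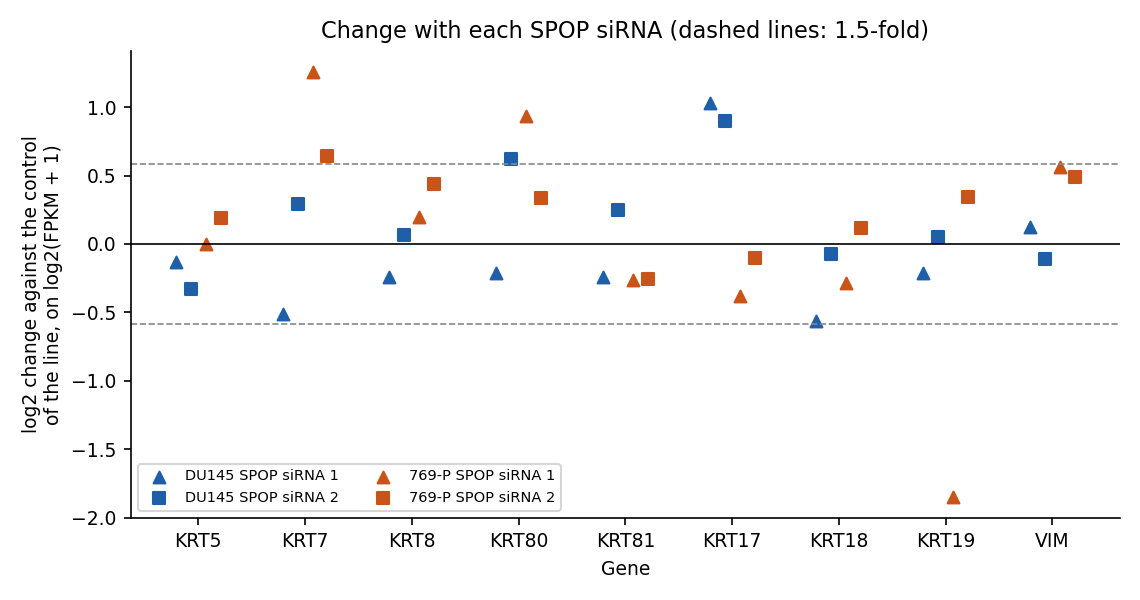
Change in log2(FPKM + 1) against the control of the line (y axis) for each of the 9 genes (x axis), with 1 point per siRNA library and dashed lines at 1.5-fold. KRT7 in 769-P and the low-level KRT17 in DU145 are past the same line with both siRNAs, and in DU145 6 of the 7 tested genes have their 2 points on either side of 0.

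The 2 siRNAs often lay on either side of the control. In DU145 6 of the 7 tested genes had a higher value with siRNA 2 than with siRNA 1, with VIM as the exception, and the control lay between the 2 siRNA libraries for 6 of 7. In 769-P 4 genes were above the control with both siRNAs (KRT7, KRT8, KRT80 and VIM), 1 was below with both (KRT81) and 2 were split (KRT18 and KRT19). How often all genes tested showed these orders was not counted, so they are not read as particular to the 7 genes. The median of the mean log2 changes of the 7 genes was -0.08 in DU145 and 0.32 in 769-P, against 0.09 and -0.03 over all genes tested.

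Other intermediate filament genes and their linkers showed few changes past the threshold. Over all genes tested 4.72% were counted as higher and 1.19% as lower in DU145, and 3.6% and 3.73% in 769-P. Of 24 other type I and 21 other type II keratins, 1 of each type was high enough to be tested, KRT10 and KRT86. KRT10, a keratin of differentiated epidermis, had 17.2 to 25.9 FPKM with a log2 difference of 0.06 between the lines (adjusted p = 0.845 from limma). KRT86, the near copy of KRT81, was past 1.5-fold with both siRNAs in 769-P, at 0.552, 2.38 and 1.95 FPKM in control, siRNA 1 and siRNA 2, and had 2.16, 2.07 and 3.08 FPKM in DU145. KRT4, a keratin of mucosal epithelia, reached 3.94 FPKM in the DU145 siRNA 2 library against 0.731 and 0.465 in the other two of that line. KRT16, a keratin of stressed epidermis, reached 2.82 FPKM with siRNA 1 in 769-P and at most 0.591 FPKM elsewhere.

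Of 11 other cytoplasmic intermediate filament genes 6 were tested, and BFSP1, a filament protein of the eye lens, was past 1.5-fold in DU145, at 2.18 FPKM in the control and 4.86 and 10.1 FPKM with the siRNAs. Of 3 lamins, the filaments of the nucleus, 0 passed in either line. Of 17 proteins that link filaments to junctions and other structures 13 were tested. PPL (periplakin) passed in DU145, from 7.98 to 13.0 and 14.5 FPKM, and JUP (plakoglobin) passed in 769-P, from 17.6 to 58.2 and 37.6 FPKM. In limma KRT86, BFSP1, PPL and JUP missed the threshold in the line named, with adjusted p from 0.656 (JUP in 769-P) to 0.896 (PPL in DU145). No gene of the other keratin, filament, lamin and linker lists was lower by 1.5-fold with both siRNAs in either line. Over all genes tested 1.19% were lower in DU145 and 3.73% in 769-P, so lists this small would hold few or none.

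The genes whose pattern was most like that of KRT18 and VIM were sought by Pearson correlation of log2(FPKM + 1), centred within each line, over the 6 libraries and 11865 genes. For KRT18 they were EPB41L4A (r = 0.997), MOCS3 (r = 0.997) and RNF113A (r = 0.994), and for VIM they were PXDC1 (r = 0.997), GLIPR1 (r = 0.996) and TRMT1 (r = 0.995). GLIPR1, like VIM, was higher in 769-P, with 4.97, 13.1 and 12.4 FPKM against at most 0.578 in DU145. Among the 7 genes themselves the highest correlation of this kind was that of KRT7 with KRT80 (r = 0.94). All of these correlations rest on the same 6 libraries, drawn from many genes, and carry no test.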

How the data were processed

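Polyadenylated RNA of 6 libraries was sequenced. The authors trimmed the reads, mapped them with TopHat2 (hg19) and deposited gene FPKM made with Cufflinks, and the tool versions and the annotation are not given in the sources used here. The labels and the methods name different library kits.

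Values listed under the same symbol were summed (the 9 genes have 1 row each), and log2 was taken after adding a pseudocount of 1, which understates changes of low genes. Genes averaging 1 FPKM or more were tested with limma 3.58.1 in R 4.3.3 (eBayes with trend, Benjamini-Hochberg adjustment over all genes tested): 4 groups for knockdown, with 2 groups of 3 libraries for the level between the lines. A fold rule without a test asked that siRNA 1 and siRNA 2 both differ from the control by 1.5-fold, in 1 direction. No count test was run, since FPKM holds no reads. In simulated data with 200 of 11865 genes changed by 2 on the log2 scale, the fit of the level between the lines recovered 188 with 5 false calls. Same-numbered siRNAs were used in both lines, and their deviations correlated across genes (0.27 for siRNA 2 minus siRNA 1), which is the basis of the paired fit. With 1 such difference in each line this is a hint only.

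Named genes were the 9 genes, SPOP, other keratins with a mean of at least 1 FPKM in a line, genes of the filament and linker lists past the fold rule, and the 3 genes most like KRT18 and VIM. Markers, pseudogenes, VIM-AS1 and TP63 were named after their values were seen. The genes and lists were chosen with earlier results of these data known. Some marker genes are not reported here. KRT15 is listed jointly with a microRNA gene and was not counted. Alternatives were the pseudocount, the filter, the scaling, subtraction of the olfactory receptor mean, the highest row per symbol, the trend, the replicate block, 4 groups or controls alone for the level, other fold rules and each library left out. Python 3.11.15, pandas 2.3.3 and numpy 2.4.6 were used for the tables.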

Additional observations from a re-analysis of the deposited data

Results flagged for a closer look

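KRT17 lay above the control with both siRNAs in DU145 and below it with both in 769-P on the log2(FPKM + 1) scale, with a difference of 1.20 between the mean changes (DU145 minus 769-P). It was below the filter of 1 FPKM, and in limma without that filter the adjusted p of this difference was 0.277. Its highest value in 6 libraries was 1.30 FPKM. The DU145 control value of 0.128 FPKM was below the olfactory receptor mean of 0.345 FPKM in that library. In 769-P the siRNA 2 value of 0.213 FPKM was below the mean of 0.227 FPKM there, and siRNA 1 was listed at 0. The direction in 769-P thus rests on values near background or at 0.

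The mean of the olfactory receptor genes was 0.227 FPKM in the 769-P siRNA 2 library, above the 0.00516 FPKM of the 769-P control. With the mean of these genes subtracted from each library, 5 of the 7 tested genes were still called higher in DU145 and 1 higher in 769-P.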

How the results depend on the processing

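The number of the 9 genes called for the level between the lines was 6 in every alternative except a mean of at least 5 FPKM, where it was 5 because KRT81 was no longer tested. It was 6 to 6 when each library was left out. The adjusted p of the 6 called genes stayed under 0.05 in every fit, the highest being 0.0218 for KRT18 without the filter. In the control libraries alone the differences of KRT7, KRT8 and VIM moved to 5.31, 1.15 and -2.10. The number called by limma for knockdown was 0 in every alternative, also with the replicate block, where it was 0 in each line and 0 for their difference, and the block changed no other call among the 9 genes. At an unadjusted p of 0.05 limma also counted 1 (KRT17) in DU145 and 1 (KRT17) for the difference without the filter, and 1 (KRT19) in 769-P and 1 (KRT19) for the difference without the 769-P siRNA 2 library. For the fold rule in DU145 the number was 1 without the filter (KRT17), and 0 to 1 when 1 siRNA was left out. In 769-P it was 2 with a pseudocount of 0.1 (KRT81 added, lower), 0 at 2-fold, 3 with the mean of the siRNAs, and 1 to 3 when 1 siRNA was left out. For knockdown in DU145 the change of KRT81, 0.00 as reported, was -0.12 with quantile normalization and -0.10 with centred changes, and that of VIM was -0.091 with centred changes. Leaving out 1 siRNA library turned the change of KRT7 (-0.51 to 0.29), KRT8 (-0.24 to 0.067), KRT19 (-0.21 to 0.052), KRT80 (-0.21 to 0.62), KRT81 (-0.24 to 0.25) and VIM (-0.11 to 0.12) in DU145. In 769-P it turned that of KRT18 (-0.29 to 0.11) and KRT19 (-1.85 to 0.34). The difference of the change between the lines turned for KRT18 (-0.48 to 0.012) and KRT19 (-0.42 to 1.77). The cause was not tested. Over all genes, limma called 16 genes changed with knockdown in DU145, 12 changed in 769-P and 20 in the difference, against 1186, 148 and 1202 without the filter, 4, 10 and 3 at a mean of at least 5 FPKM and 18, 14 and 8 with the replicate block (in this order). Without either 769-P siRNA library all 3 numbers were 0, and leaving out each siRNA library gave 0 to 30, 0 to 7 and 0 to 37. The number for the difference was 10 with quantile normalization and 0 with a pseudocount of 0.1. For the level it was 5509, and 3590 at a mean of at least 5 FPKM. By the fold rule 560 genes were higher and 141 lower in DU145, against 809 and 323 with a pseudocount of 0.1, 642 and 498 without the filter, 378 and 62 at a mean of at least 5 FPKM, 79 and 39 at 2-fold, 1086 and 372 with the mean of the siRNAs, and 1428 and 880 or 1345 and 442 with siRNA 1 or siRNA 2 alone. In 769-P 427 were higher and 442 lower, against 730 and 759, 302 and 271 (at least 5 FPKM), 78 and 67, 777 and 891, 1221 and 1167, and 730 and 993. With 1 control a line and no read counts, the error of a control value is not known.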
